A study of Mus musculus with 2 samples.

Results

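The family of miR-130 and miR-301 was followed in small-RNA sequencing of mouse cerebral cortex. Its members were taken by gene name from the GENCODE M21 annotation as Mir130a, Mir130b, Mir301 and Mir301b, which are 4 of the 2202 microRNA (miRNA) genes counted. The family was chosen by its own-strand counts, which were known from earlier work on these files, so their levels and the difference between the libraries are described here without a test. The tissue was left cerebral cortex of male mice of the strain B6CASTF1/J, the F1 hybrid of C57BL/6J and CAST/EiJ, aged 25 days. There was 1 group, for which the labels name no treatment, with 1 library from each of 2 separately numbered males (biological replicates 1 and 2).

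MicroRNAs are cut from hairpin precursors and guide Argonaute proteins to messenger RNAs, mainly through the seed, which is bases 2 to 8 of the mature strand. Genes of this family give mature miRNAs with a common seed on the 3′ arm of the hairpin. The family is known for repression of Pparg, the adipogenic nuclear receptor, and miR-130a for effects on vessel-forming endothelial cells. Mir301 gives miR-301a and lies inside Ska2, which encodes a component of the spindle and kinetochore associated complex.

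The mature arms are shown because the shared seed is what makes these genes a family. Sequences are from RefSeq on GRCm38.p6, which is the mm10 assembly. All 4 genes had an entry, with 7 mature arms in all, and miR-301b-3p was not among them. Capitals mark the seed.
miR-130a-3p: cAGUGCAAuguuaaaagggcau
miR-130b-3p: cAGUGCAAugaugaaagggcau
miR-301a-3p: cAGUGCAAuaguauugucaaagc
miR-130a-5p: gCUCUUUUcacauugugcuacu
miR-130b-5p: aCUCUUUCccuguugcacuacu
miR-301a-5p: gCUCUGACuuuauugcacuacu
miR-301b-5p: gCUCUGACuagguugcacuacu
The 3 listed 3′ arms share the seed AGUGCAA, and their first 9 bases are identical. The Mir301b hairpin also holds AGUGCAA, outside its listed arm. miR-130a-3p and miR-130b-3p matched at 20 of 22 positions. Counted from the 5′ end, with miR-130a-3p as reference, they differed by U11A and A13G. miR-301a-3p parted from miR-130a-3p after base 9 and matched it at 12 of the first 22 positions. On the 5′ arm, miR-301a-5p and miR-301b-5p share the seed CUCUGAC and differ by U10A, U11G and A12G, while miR-130a-5p and miR-130b-5p have seeds of their own.

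The hairpins of the most abundant member and of the member that differed most between the mice are given next, since the files count reads per hairpin gene. Capitals mark the annotated 5′ and 3′ arms, in that order.
Mir130a: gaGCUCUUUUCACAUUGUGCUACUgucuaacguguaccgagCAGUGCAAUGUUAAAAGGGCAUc
Mir301: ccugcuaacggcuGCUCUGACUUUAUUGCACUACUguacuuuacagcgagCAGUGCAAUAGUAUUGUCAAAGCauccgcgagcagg
Reads of the 2 arms of a hairpin are summed in these counts, so a level below cannot be split into guide and passenger strand.

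Reads that match several places were not given to genes, which makes sequence shared between genes matter for the levels. None of the 7 arms had an exact copy in a transcript of another gene, in a search of GENCODE M21 transcripts of 55450 genes. The arm miR-301b-3p was not listed, so it was not searched. The nearest other hairpin to miR-301a-3p was Mir301b, with 1 mismatch over 23 bases, and the next had 6. Between miR-130a-3p and the Mir130b hairpin there were 2 mismatches over 22 bases. The longest exact stretch that the Mir301 hairpin shared with another hairpin was 16 bases, with Mir301b. For Mir130a it was 17 bases, with Mir6389. Short or mismatched reads of such pairs could be placed on either gene or left out, and the effect on the levels was not tested.

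Mir130a (ENSMUSG00000065484.1), the first family member by level, lies on chromosome 2 of mm10 at 84741115 to 84741178, on the minus strand, in no other annotated gene. The nearest genes are Ypel4, at a distance of 2459 bases, and Gm19426, at 990 bases. It had 4391 reads on its own strand in replicate 1 and 8605 in replicate 2. Scaled to counts per 1000000 own-strand counts of all miRNA genes (CPM), this was 1838 CPM for the first mouse, with a 95% Clopper-Pearson interval (exact) of 1785 to 1894, and 1935 CPM for the other (1894 to 1976). Both mice thus stood close together, at a mean of 1887 ± 68.1 CPM (SD, n = 2). Mir130a ranked 73 and 75 among the 2202 genes. All such intervals cover the counting error of reads only, and not variation between mice or libraries. Amplified copies of a molecule cannot be recognised in these reads, so the intervals may be too narrow.

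Mir130b (ENSMUSG00000065572.1) lies on chromosome 16 at 17124061 to 17124142, on the minus strand, in intron 1 of 2610318N02Rik. It had 277 reads in replicate 1 and 566 in replicate 2, which is 116 CPM (interval 103 to 130) and 127 CPM (117 to 138). The mean was 122 ± 7.98 CPM (SD, n = 2), and the intervals of the mice overlapped. The ranks of Mir130b were 194 and 197.

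Mir301 (ENSMUSG00000065589.1) lies on chromosome 11 at 87113004 to 87113089, on the plus strand, in intron 1 of Ska2. Of the 3 Ska2 transcripts, 2 span it, and the nearest exons are 3699 and 3014 bases away. It had 78 reads in replicate 1 and 3156 in replicate 2, which is 32.7 CPM (interval 25.8 to 40.8) and 709.6 CPM (685 to 735). Replicate 1 was low, replicate 2 was high, and the intervals lay far apart. The mean of 371 CPM has an SD of 479 CPM (n = 2), so it describes neither mouse. Its rank moved from 254 to 121.

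Mir301b (ENSMUSG00000076288.1) is the neighbour of Mir130b, at 17124400 to 17124496 in the same intron and on the same strand, with 257 bases between the genes. It had 3 reads in replicate 1 and 17 in replicate 2, which is 1.26 CPM (interval 0.259 to 3.67) and 3.82 CPM (2.23 to 6.12). The count in replicate 1 is at the floor of 3 counts used here as the limit of detection. Mir301b had reads in both mice, at a mean of 2.54 ± 1.81 CPM (SD, n = 2), with intervals that overlapped. Since miR-301a-3p has only 1 mismatch in the Mir301b hairpin, some of these reads could come from Mir301, which was not tested. It is the only member under 10 counts in a library, so 3 of the 4 members count as measured below.

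**Figure D1:**
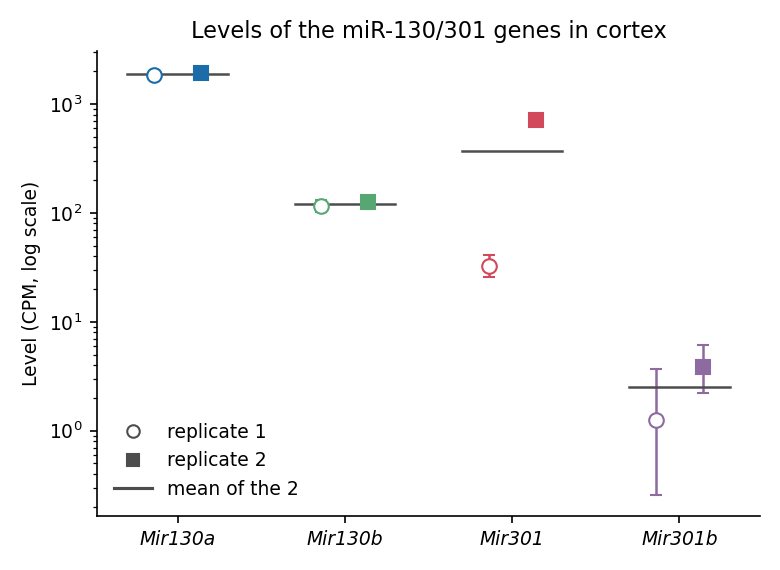
Levels of the 4 family genes in counts per 1000000 (log scale), with open circles for replicate 1, squares for replicate 2, 95% exact Clopper-Pearson intervals as bars and the mean as a line. Mir130a and Mir130b sit at nearly the same level in both mice, while Mir301 lies at 32.7 CPM for replicate 1 but 709.6 CPM for replicate 2, and Mir301b is the lowest in both.

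The order of the levels was fixed at its ends and not in its middle. Mir130a was above every other member in both libraries, and Mir301b was below every other. Mir130a exceeded Mir130b 15.9-fold in replicate 1 (interval 14.0 to 18.0) and 15.2-fold in replicate 2 (14.0 to 16.6). Mir130b stood 3.55-fold above Mir301 in replicate 1 (2.75 to 4.63) but Mir301 stood 5.58-fold above Mir130b in replicate 2 (5.10 to 6.11). The ranges of these 2 genes over the mice therefore overlap, and they have no settled order. Arms of different sequence can be ligated and amplified unequally, so ratios between genes are ratios of reads.

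Within the cluster of Mir301b and Mir130b, the reads were very unequal. Mir130b had 92.3 times the reads of Mir301b in replicate 1 (interval 31.3 to 450.5) and 33.3 times in replicate 2 (20.6 to 57.6). Over the means of the mice the ratio was 47.9-fold. Among the 64 pairs of measured miRNA genes that neighbour each other on the same strand within 1000 bases, the median ratio of levels was 6.06-fold, and 5 pairs were further apart than Mir130b and Mir301b. That set holds only genes that reached 10 counts in both mice, which leaves out very unequal pairs of low genes, and Mir301b itself. Some of the wider pairs include a numbered copy of a miRNA gene, whose level is uncertain because reads matching several places were left out.

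Replicate 2 was compared with replicate 1 for each member. Mir130a was 1.05-fold of its level in replicate 1 (interval 1.01 to 1.09), Mir130b 1.10-fold (0.949 to 1.27) and Mir301 21.7-fold (17.4 to 27.6). Mir301b was 3.04-fold with an interval of 0.880 to 16.2 that includes 1, so no difference was detectable at its depth. On the scale of log2(CPM + 1), the differences were 0.07 for Mir130a, 0.13 for Mir130b, 4.40 for Mir301 and 1.10 for Mir301b. The clustered genes Mir130b and Mir301b differed by 0.96 on this scale, against a median of 0.56 over the 64 neighbouring pairs, of which 13 differed by more.

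A count of 10 or more in replicate 1 and also in replicate 2 was reached by 392 genes, and 38 of them lay over 2-fold apart on that scale, or 9.69%, and 1 of the 3 measured members was among them. Of all 392 genes, 29 (7.40%) were over 2-fold higher in replicate 2 and 9 (2.30%) lower. The split was 25 and 13 with DESeq2 size factors. Since the family was chosen with these values known, nothing is read from its count. Mir301 had the highest log2 difference of the 392 genes, ahead of Mir195a at 2.58. Mir26a-1, at -4.70, was the only gene with a larger absolute difference. Mir130a and Mir130b were in the middle of the list, at positions 192 and 174. The comparison has 1 library per mouse, so mouse and library cannot be told apart. In bulk tissue, fewer cells of a type and less RNA per cell cannot be told apart either.

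**Figure D2:**
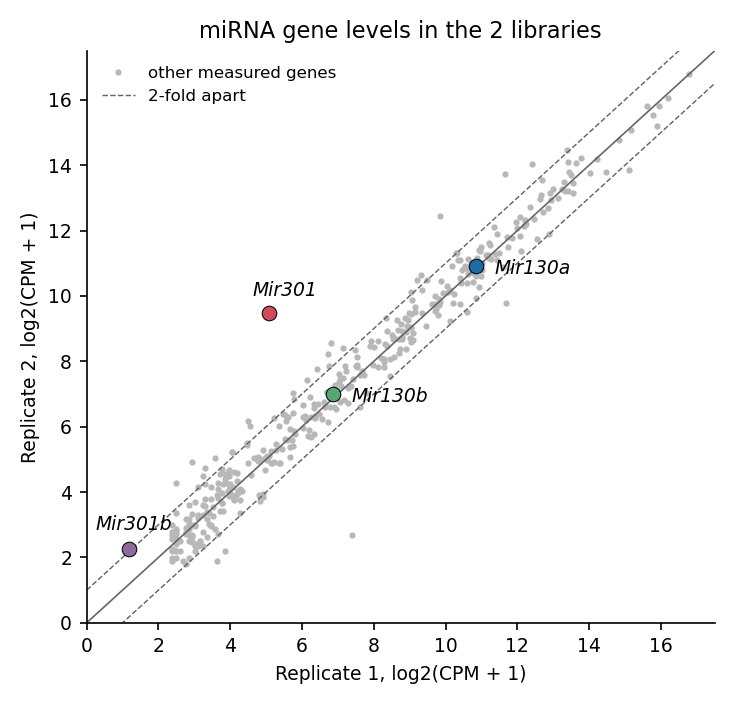
Level of each measured miRNA gene, as log2(CPM + 1), in replicate 1 (x axis) against replicate 2 (y axis), with the line of equality and dashed lines at 2-fold. Mir130a and Mir130b lie next to the line of equality, Mir301 lies above it by 4.40, and Mir301b, which had under 10 counts in replicate 1, is added at the lower left.

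The summed level of the family followed Mir301. The 4 genes summed to 4749 counts and 12344 counts in replicates 1 and 2, or 0.199% of own-strand counts (interval 0.193 to 0.205%) and 0.278% (0.273 to 0.282%). The mean share was 0.238% ± 0.056 (SD, n = 2). The sum was 1.40-fold in replicate 2 (1.35 to 1.44). Without Mir301 it was 1.06-fold (1.02 to 1.09), with 1956 and 2066 CPM in replicates 1 and 2.

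Mir130a supplied 92.5% of the family's counts in replicate 1 (interval 91.7 to 93.2%) and 69.7% in replicate 2 (68.9 to 70.5%). Mir301 supplied 1.64% (1.30 to 2.05%) and 25.6% (24.8 to 26.3%). The share of Mir130b was 5.83% and 4.59%, and that of Mir301b 0.063% and 0.138%. Both mice therefore carried mostly miR-130a among the reads of this family, and they differed in how many came from the Ska2 intron.

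**Figure D3:**
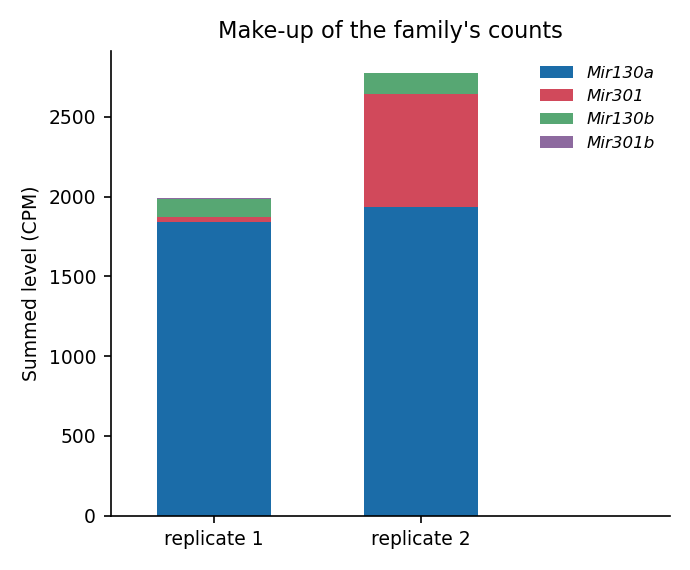
Summed level of the family in counts per 1000000 for each library, stacked by gene. The Mir130a block has nearly the same height in both bars, and the Mir301 block grows from 32.7 to 709.6 CPM.

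Other genes with the same seed added nothing that was counted. RefSeq lists 7 mature miRNAs with the seed AGUGCAA among 1738, which is 0.403%. Of these, 3 belong to the members, and 3 of the other 4 are shown to compare their 3′ parts.
miR-6341: cAGUGCAAugauauugucacuau
miR-721: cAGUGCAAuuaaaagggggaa
miR-130c: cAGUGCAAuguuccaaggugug
The genes of all 4, Mir6341, Mir721, Mir6389 and Mir130c, had 0 counts on either strand in both libraries, which allows each a level of up to 1.26 and 0.675 CPM in replicates 1 and 2. Mir721 lies in an intron of the homeobox gene Cux1, while Mir130c overlaps an exon of Kdelc2 on the other strand. Reads that also match another place would be missing from these counts.

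The family of miR-148 and miR-152 has the seed CAGUGCA. That seed shares AGUGCA with the seed AGUGCAA, moved by 1 position, which is why this family is set beside these genes.
miR-148a-3p: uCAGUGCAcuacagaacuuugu
miR-152-3p: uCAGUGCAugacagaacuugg
Mir148a stood at 36.0 and 76.0 CPM in replicates 1 and 2, and Mir148b at 69.9 and 171 CPM. Mir152 was at 44.8 and 48.3 CPM. Of these 3 genes, 2 were over 2-fold higher in replicate 2, where 7.40% of all 392 measured genes were. Their median log2 difference was 1.06, against 0.06 over all measured genes. Their summed level was 151 and 295 CPM, so both families had a higher sum in replicate 2. The seed family of miR-17, a set of proliferation-promoting miRNAs whose seed is AAAGUGC, had all 6 genes within 2-fold, with a median of -0.08. Of all 392 measured genes, 354 were within 2-fold. Its most abundant gene, Mir93, was at 1831 and 1560.0 CPM, a level like that of Mir130a.

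Lists with a tie to the known roles of the family were mixed. Of the 10 vascular and angiogenesis miRNAs, 8 were measured, with 2 over 2-fold higher in replicate 2 and 1 over 2-fold lower, against 7.40% and 2.30% of all measured genes. The median log2 difference of the list was -0.08. The endothelial miRNA Mir126a was 2.09-fold (10782 and 22504 CPM) and Mir296 2.12-fold, while Mir222 was at 3270.4 and 874 CPM. Mir210, the hypoxia-induced miRNA, was at 96.7 and 106 CPM. The list has 2 genes with no count, Mir126b, which is annotated opposite Mir126a, and Mir145b. Mir27a and Mir27b, which like miR-130 are known to repress Pparg, were at 132 and 174 CPM and at 1583 and 2249 CPM. Neither passed 2-fold.

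**Figure D4:**
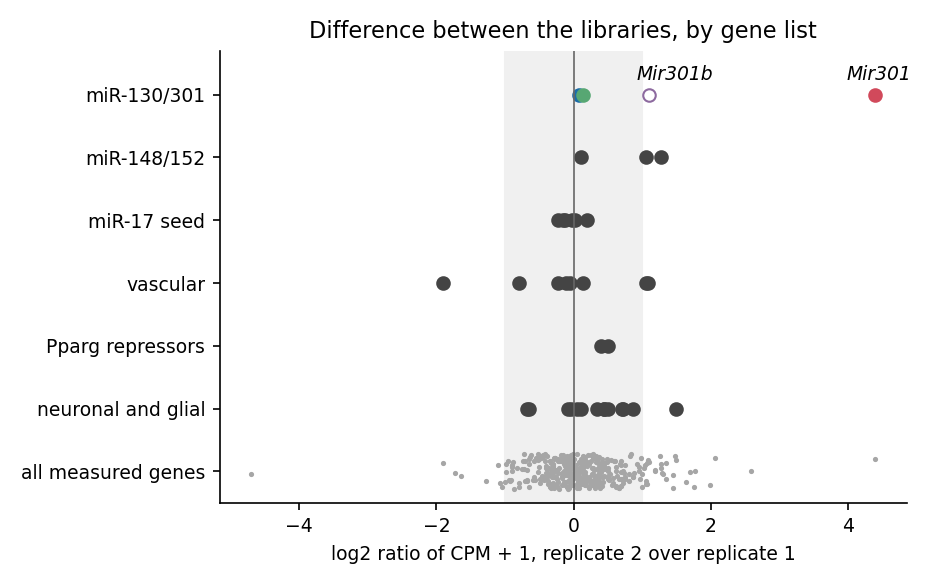
Difference between the libraries for each listed gene with a count, as the log2 ratio of CPM + 1 (replicate 2 over replicate 1), with the range within 2-fold shaded and an open circle for a gene under 10 counts in a library. Mir301, at 4.40, lies outside the range of the other 5 gene lists, while Mir130a and Mir130b lie near 0.

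Genes with levels most like each member were found by distance in log2 CPM over the 2 libraries, which is a likeness over 2 points only. Nearest to Mir130a were Mir708, at a distance of 0.15, and Mir323, at 0.19. Mir30c-1 (0.064) and Mir218-2 (0.12) were nearest to Mir130b, and both are numbered copies whose levels are uncertain. Mir301 had no near gene: the closest were Mir1298 at 1.98 and Mir153 at 2.10.

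Other quantities also differed between the libraries. Replicate 2 held 4447390 own-strand counts and replicate 1 held 2388379, and 18.2% against 31.6% of reads were unmapped. Among miRNAs used to check the tissue, the lists of neurons and of endothelium and mural cells held members that went both ways. All 7 neuronal miRNAs were measured, and they summed to 87805 CPM in the first mouse against 75127 CPM in the other. That sum followed Mir132, at 60392 and 37793 CPM, while the median log2 difference of the list was 0.34. Mir153, at 2.84-fold, was the only one of the 7 over 2-fold apart, against 9.69% of all measured genes. The 3 miRNAs of endothelium and mural cells summed to 16755 and 28009 CPM with a median of -0.11. Mir126a was 2.09-fold there, Mir143 0.925-fold and Mir145a 0.857-fold. The 3 of oligodendrocytes summed to 2726 and 3556 CPM with a median of -0.03. Among them, Mir219a-2 was 1.64-fold, Mir338 0.977-fold and Mir219a-1 0.594-fold. The intervals of Mir338 (0.936 to 1.02) and Mir219a-1 (0.304 to 1.17, from 19 and 21 reads) include 1. Levels of numbered copies, such as Mir219a-1 and Mir219a-2, are uncertain. The 2 astrocyte miRNAs, Mir23b and Mir29a, were 1.36-fold and 1.82-fold and summed to 20653 and 31089 CPM. Microglial and leukocyte miRNAs summed to 83.7 and 90.4 CPM and those of red cells to 118 and 108 CPM. Those of muscle summed to 13.8 and 22.3 CPM, with Mir1a-1 and Mir133a-1 at 0. Both are numbered copies, and reads that also match another place would be missing, so this 0 does not show absence. Mir122 of liver was at 54.0 and 57.6 CPM. The part of these in the difference of Mir301 was not tested.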

How the data were processed

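Raw read counts per miRNA gene were deposited by the authors for 2 libraries, made on the mm10 assembly with GENCODE M21, per the file headers of the readme files. The aligner and the counting tool were not given in the sources used here. Of 3 count columns, the middle one was read from its values as counts on the gene's own strand and was used throughout. The 4 entries that name no gene were left out of totals. Reads with several matches made up 48.6% and 52.8% of those mapped. A count of 10 equals 4.19 and 2.25 CPM in replicates 1 and 2.

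CPM, shares with exact Clopper-Pearson intervals, and folds with exact conditional binomial intervals were computed (95%). Log2 differences used a pseudocount of 1 CPM, and measured means at least 10 counts in each library. Members and lists were chosen with earlier results of these data known. With 1 group and members chosen on these counts, no test was run. The 2 files are not copies of each other, since 38 of 392 measured genes lay over 2-fold apart. All 2202 identifiers matched the annotation. The genes named are the members, genes with their seed, the fixed lists, hosts and neighbours, the 2 genes nearest in level to each measured member, and the most abundant gene. Mir195a, Mir26a-1 and the hosts of other seed genes were added after values were seen. Alternatives were TMM (edgeR 4.0.16) and DESeq2 1.42.0 scaling, both strands together, other count minimums, another pseudocount, other totals and each library alone. Computation used R 4.3.3, RNAfold 2.7.2, pandas 2.3.3, matplotlib 3.10.9, SciPy 1.17.1 and Python 3.11.15. The fold and interval code was tested on simulated counts. The search for exact copies covered transcripts, not the genome.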

Additional observations from a re-analysis of the deposited data

How the results depend on the processing

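No alternative changed the direction of a member's difference between the libraries or moved Mir301 within 2-fold. The TMM factors were 0.98 and 1.02, and Mir301 had 0 reads on the opposite strand, so these alternatives could hardly move its value. The log2 difference of Mir301 ran from 4.33 to 4.44 over the scalings, strands and pseudocounts tried, that of Mir130b from 0.067 to 0.16 and that of Mir301b from 1.05 to 1.53. Mir130a stood at 0.016 with TMM and 0.0071 with DESeq2 size factors, against 0.074. Both values lie below its counting interval of 0.021 to 0.126 on the log2 scale, so its small difference depends on the scaling. Without Mir139, the most abundant gene, in the totals, Mir130a stood at 2126 CPM and Mir130b at 137 CPM, because the totals are smaller. In the column for both strands, Mir130a and Mir130b stood at 2046 and 132 CPM. The totals of that column are also smaller, at 2221800 and 4067247 counts in replicates 1 and 2. For 58 genes in each library it was not the sum of the strands. Each library alone gave 1838 to 1935 CPM for Mir130a, 116 to 127 CPM for Mir130b, 32.7 to 709.6 CPM for Mir301 and 1.26 to 3.82 CPM for Mir301b. As a share of all mapped reads the family held 0.0997%. Its sum was 1.06-fold without Mir301, an alternative added after seeing the data. Genes over 2-fold apart numbered 75 of 613 at a count minimum of 1 and 20 of 242 at 100. No paired analysis was possible because there is 1 group. Depth limits Mir301b most, at 3 and 17 counts.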

Other observations

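The spread within the family can be set beside that of other seed groups, a comparison chosen after the values were seen. Among 68 sets of 2 or more measured genes that share the seed of a listed mature arm, the median range of log2 differences between the libraries was 0.58. Mir130a, Mir130b and Mir301 spanned 4.33, the second-widest range. That width comes from Mir301, whose difference was known when the family was chosen, so nothing is read from this rank. Some of the sets also share genes. The set of Mir26a-1, Mir26a-2 and Mir26b spanned 5.05, and Mir26a-1 and Mir26a-2 are numbered copies with uncertain levels.

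Reads on the opposite strand of the members were 0 in replicate 1 and 1 in replicate 2, at Mir130a. The predicted folding energies of the hairpins (RNAfold) were -22.1 kcal/mol for Mir130a, -30.1 for Mir130b, -37.0 for Mir301 and -39.1 for Mir301b. Per base, Mir130a at -0.345 was weaker than the median of 335 measured hairpins with a sequence (-0.435), and 11.3% of them were weaker still. Mir301 at -0.430 was close to that median. The most abundant member was thus not the one with the most stable predicted hairpin.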
